A study of Mus musculus with 9 samples.

Results

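High glucose was compared with control in C2C12 myoblasts, a clonal mouse line that grows as single cells and can fuse into myotubes. The comparison used the 3 libraries of the H group, cells kept in 25 mmol/L glucose, and the 3 of the NC group, the untreated control cells, both after 48 h. It took in the genes with an FPKM of 1 or more in at least 3 of these 6 libraries, 13195 of the 54307 genes in the table. FPKM are fragments scaled to the length of the gene and to the mapped reads of the library. The study also held 3 libraries of an HL group, given 200 nmol/L of the glucagon-like peptide-1 analogue liraglutide in 25 mmol/L glucose for 48 h. The glucose concentration of the NC medium was not given in the sources used here, and no osmotic control sample was analysed here. The methods of the study speak of independent biological repeats in general but do not tie the sequenced libraries to separate cultures. The p-values reflect the variation among these libraries, part of which may be technical.

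Glucose enters myoblasts through facilitative transporters and is phosphorylated, and part of it can be reduced to sorbitol by aldose reductase when its concentration is high. A concentrated medium also draws water out of cells. Cells answer by taking up or making small organic solutes under the control of the transcription factor NFAT5. Proliferating myoblasts express DNA replication and mitosis genes, and they lower them when they leave the cell cycle. These are the background to the gene lists described here.

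Of the 13195 genes tested, 2086 (15.8%) were called, with the adjusted p below 0.05 and the log2 fold change above 1 or below -1. The call was up-regulated in H for 1309 genes (9.92%) and down-regulated for 777 (5.89%). The rises reached further than the falls. A log2 fold change over 3 was met by 275 up-regulated genes, and a fold change under -3 by 20 down-regulated genes. In 66.5% of the tested genes the 3 H and 3 NC values did not overlap, with H above NC in 3921 genes and below in 4855. The share of rises depended on the level. Of 3110 genes with a mean of 1 to 5 FPKM, 20.68% rose and 6.463% fell, whereas of 1037 genes over 100 FPKM, 4.725% rose and 6.943% fell. The filter adds to the rises, since 594 genes passed it through the H libraries alone and 545 of these were called. Among the 11627 genes at 1 FPKM or more in all 6 libraries, 623 rose and 642 fell. Rescaling each library to the same total moved the median of all genes from -0.06 to 0.14 on the log2 scale and the share of rises among the calls from 62.75% to 76.06%. In bulk RNA, fewer cells in a given state and less of an mRNA per cell cannot be told apart.

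**Figure D1:**
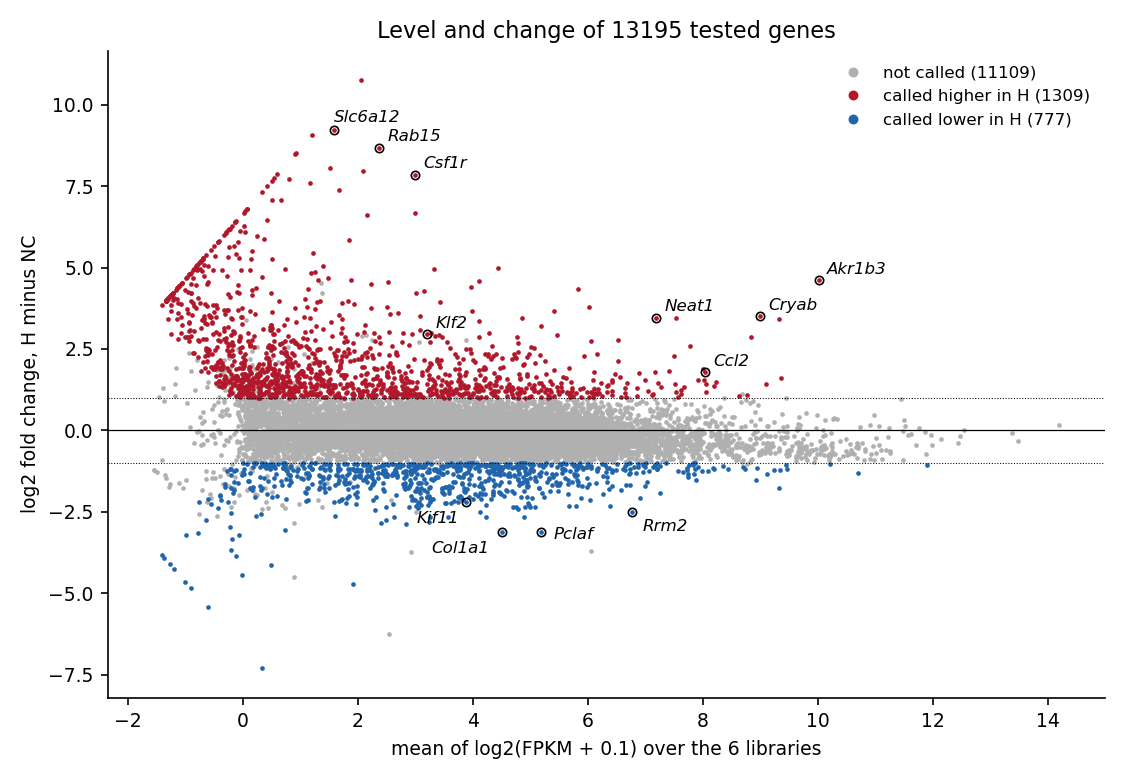
Each point is 1 of the 13195 tested genes, with the mean of log2(FPKM + 0.1) over the 6 libraries on the horizontal axis and the log2 fold change, H minus NC, on the vertical axis. The 1309 genes called higher in H (red) spread upwards at low levels, the 777 called lower (blue) mostly stay above -3, and the dotted lines mark log2 fold changes of 1 and -1.

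The H libraries varied more than the NC libraries. The median SD of the log2 values over the tested genes was 0.167 in H and 0.0697 in NC, and the SD was larger in H in 77.48% of the genes. H replicate 1 was the farthest of the H libraries from NC in 68.37% of the up-regulated genes and in 54.95% of the down-regulated genes. The summed FPKM was 649733 to 683362 in H and 757000 to 765681 in NC, and mitochondrially encoded transcripts made up 7.238% to 9.475% of it in H and 6.477% to 7.279% in NC. The part of these differences in the results was not tested.

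The largest rises were in genes close to 0 in NC. Rab15, a small GTPase of endosomal recycling, had 0.0822, 0.0985 and 0.360 FPKM in the NC libraries and 140.2, 75.8 and 108 in H (log2 fold change 8.68, standard error 0.38). Fxyd2, the gamma subunit that modulates the sodium pump, was listed at 0 in all NC libraries and reached 48.9, 28.4 and 34.2 FPKM in H. Fam180a was listed at 0 in NC and at 19.3, 12.6 and 16.3 FPKM in H. In each of these genes every H library lay far above every NC library, but all of them had entered the test through H alone. Tmigd1, a membrane adhesion protein, went from 0.122, 0.121 and 0 FPKM to 12.1, 9.25 and 8.497. Rps13-ps1, a ribosomal protein pseudogene, was listed at 0 in NC and had 5.93, 43.7 and 3.97 FPKM in H, so that H replicate 2 stood apart. Rises of this size were also seen in a group of processed pseudogenes with clone names, picked out after the values were seen. AC127331.6 was listed at 0 in all NC libraries and at 237, 124 and 176 FPKM in H, and pseudogenes may share reads with the genes they derive from.

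The largest falls are given for genes with a mean of at least 5 FPKM in the higher group and no overlap. Predicted-gene and clone names were left out. These falls included genes of DNA replication, chromosome segregation and matrix. A log2 fold change under -3 was called in 20 genes, and the genes given below all fell by less. Cdc6, which loads the replicative helicase at origins, went from 20.1, 18.6 and 19.6 FPKM to 2.86, 2.22 and 2.64 (log2 fold change -2.88, standard error 0.11, adjusted p = 7.48e-06). Kif15, a spindle kinesin, went from 22.9, 25.4 and 27.0 FPKM to 2.53, 4.09 and 4.04 (-2.81). Rad54b, a recombination helicase, went from 14.6, 13.6 and 15.2 to 1.74, 2.14 and 2.38 (-2.75). In all 3 genes the groups were far apart, and the H values lay within a narrow band. Hp, which encodes the haemoglobin-binding protein haptoglobin, went from 23.6, 24.2 and 24.8 to 2.56, 6.31 and 3.13 FPKM (-2.68). Lrr1, Cenpk, Spc24, Gen1, Ankle1 and Zwilch followed, with log2 fold changes from -2.84 to -2.52. Cenpk, Spc24 and Zwilch belong to the kinetochore, and Gen1 is a nuclease that resolves joined chromosomes.

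**Figure D2:**
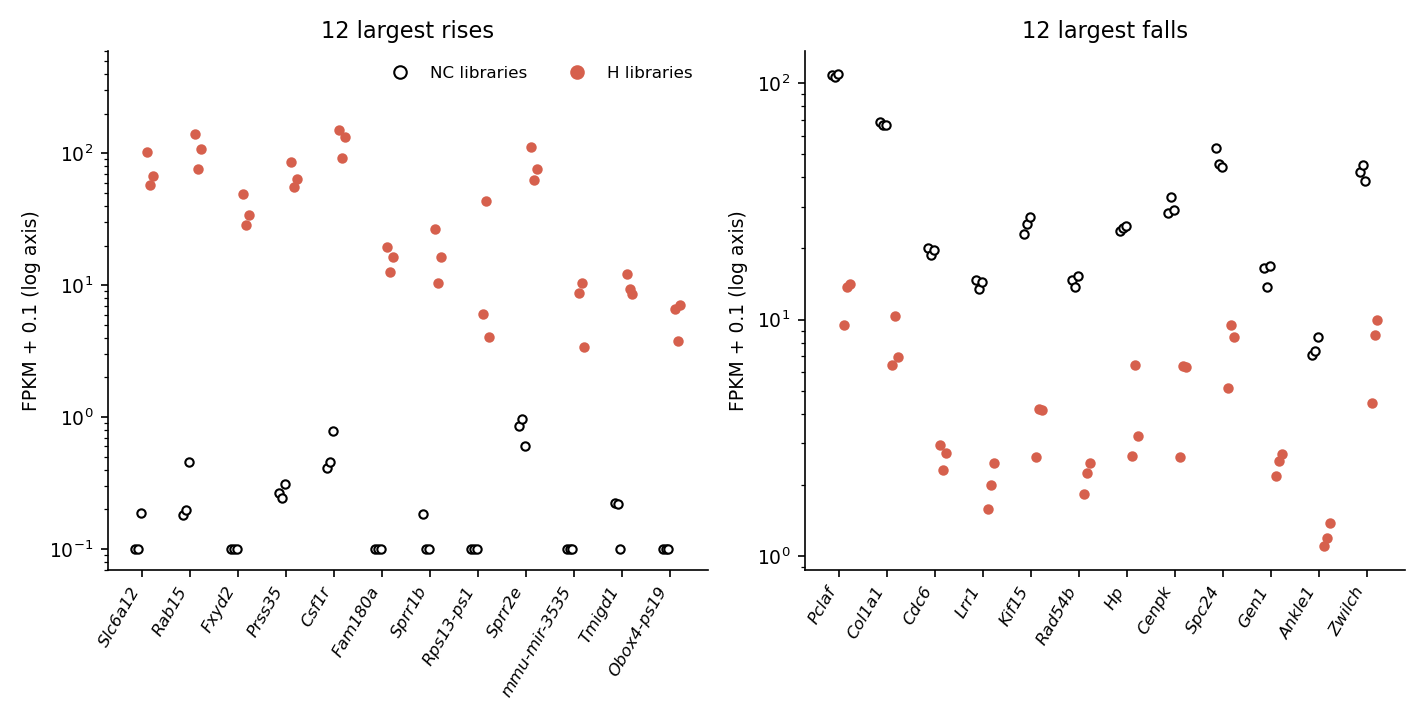
FPKM + 0.1 on a log axis in each NC library (open circles) and H library (filled circles), for the 12 largest rises (left) and the 12 largest falls (right) among genes with a mean of at least 5 FPKM in the higher group and a symbol that is not a predicted-gene or clone name. The H points lie above all NC points on the left and below all of them on the right, and genes listed at 0 in NC sit at 0.1.

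Promoter sequences were read from RefSeq on GRCm38.p6, 250 bases before to 50 after each start, for 9527 of the tested genes. They were searched on both strands for short motifs known from the pathways at issue, and a gene with several promoters counted when any of them held the motif. The AP-1 site TGAGTCA was present in 4.88% of the tested promoters, in 9.91% of those of up-regulated genes and in 2.45% of those of down-regulated genes. The E2F sites TTTCCCGC or TTTGGCGC were present in 3.53% of all tested promoters, in 1.22% of the up-regulated and in 10.8% of the down-regulated. The cell cycle homology region (CHR) TTTGAA was present in 14.5%, 14.4% and 28.7%, in the same order. The NFAT5 core TGGAAA was present in 19.9% of all tested promoters, in those of 177 of 737 up-regulated genes and in those of 108 of 530 down-regulated genes (20.4%). Over all 32851 promoters of the table, the shares were 5.2% for AP-1, 1.56% for E2F, 17.9% for the CHR and 21.4% for the NFAT5 core. A match is a run of letters and not a site shown to be bound. The examples come from genes with large changes, and the capitals mark the motif as it reads on the gene's strand: the NFAT5 core TGGAAA in Slc6a12 and the AP-1 site in Sprr2e, both up-regulated, and an E2F site in Cdc6 and Mcm6, both down-regulated. The table holds 5 promoters of Slc6a12, and the letters TGGAAA were found in 1 of them.
Slc6a12 (chr6:121342469-121342534, plus strand, 75 bases before the start): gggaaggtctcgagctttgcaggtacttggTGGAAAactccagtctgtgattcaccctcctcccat
Sprr2e (chr3:92351920-92351986, plus strand, 193 bases before the start): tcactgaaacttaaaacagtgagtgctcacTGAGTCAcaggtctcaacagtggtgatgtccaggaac
Cdc6 (chr11:98907983-98908050, plus strand, 138 bases before the start): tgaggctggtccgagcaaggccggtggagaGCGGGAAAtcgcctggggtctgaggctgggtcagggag
Mcm6 (chr1:128359715-128359782, minus strand, 47 bases before the start): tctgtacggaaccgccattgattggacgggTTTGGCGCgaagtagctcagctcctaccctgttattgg

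Among the members of the mitotic kinesin list that fell, 15 had a promoter in the table and 14 of them (93.3%) held the CHR letters. The matches included Racgap1, Prc1, Anln and Ect2, which are not kinesins. In 12 of the 15 (80.0%) the motif lay within 50 bases before or after the start, against 3.81% of all tested promoters. TTCAAA is the same motif on the opposite strand. The windows of 3 kinesin genes and of Cdc20, the activator of the anaphase-promoting complex, were picked with the motif close before the start. In other kinesin genes, such as Kif4, Kif23, Kif18b and Kif20b, it lay after the start.
Kif11 (chr19:37376333-37376398, plus strand, 19 bases before the start): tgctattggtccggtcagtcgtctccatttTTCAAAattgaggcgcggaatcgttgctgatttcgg
Kif15 (chr9:122951032-122951097, plus strand, 19 bases before the start): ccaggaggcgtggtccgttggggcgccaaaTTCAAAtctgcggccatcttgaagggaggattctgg
Kif22 (chr7:127042402-127042467, minus strand, 17 bases before the start): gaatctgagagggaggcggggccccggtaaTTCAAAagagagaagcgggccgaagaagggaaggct
Cdc20 (chr4:118437326-118437391, minus strand, 18 bases before the start): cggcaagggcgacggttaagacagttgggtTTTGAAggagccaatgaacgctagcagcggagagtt

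Genes of osmolyte transport and cell volume were among the strongest rises. Of 23 tested members of the list, 8 rose and none fell, with a median log2 fold change of 0.30 against -0.06 over all tested genes. One of them, Slc6a12, the betaine transporter, passed the filter through H alone. The summed level of the list was 1092 to 1109 FPKM in NC and 8700, 5496 and 6488 in the H libraries, where most of it came from Akr1b3 (aldose reductase). Aqp1, a water channel, had 48.0, 49.4 and 48.5 FPKM in NC and 188, 144 and 159.5 in H (log2 fold change 1.74). Slc5a3, which carries myo-inositol, went from 6.02, 6.12 and 5.45 FPKM to 18.9, 18.7 and 18.2 (1.65, adjusted p = 1.06e-05). The H values of Slc5a3 were almost equal and lay far above those of NC. Sgk1, a kinase that regulates ion channels, had a log2 fold change of 1.53, the water channel Aqp5 of 1.18, the volume-regulated channel subunit Lrrc8d of 1.38 and the phospholipase Pnpla6, which makes glycerophosphocholine, of 1.32. Nfat5 itself had 16.8, 17.6 and 16.8 FPKM in NC and 25.3, 23.2 and 25.4 in H, a log2 fold change of 0.52 that did not reach the fold threshold (adjusted p = 0.000643). Sord, which oxidises sorbitol to fructose, was not called (-0.17). Akr1b8, a relative of aldose reductase, rose from 87.2, 88.3 and 93.7 FPKM to 681, 449.8 and 508 (2.58, adjusted p = 1.67e-05), and these 2 genes were the ones that rose among 13 aldo-keto reductase and polyol pathway genes.

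Some genes of the sodium pump rose as well. Of 8 tested pump subunits and FXYD regulators, 3 rose and none fell, and 5 rose after rescaling to the same total. Atp1b1, the beta subunit that carries the pump to the membrane, had 3.49, 3.82 and 3.03 FPKM in NC and 110.1, 69.1 and 80.8 in H (log2 fold change 4.59, standard error 0.17). Every H library lay far above every NC library. Fxyd2, described above, was another of the 3, and had entered the test through H alone.

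Some chaperones of the cytosol rose. Hspa4l, an exchange factor for HSP70, went from 35.5, 34.3 and 35.6 FPKM to 277, 203 and 245.5 (log2 fold change 2.77, adjusted p = 7.48e-06). Hspa1b, the inducible HSP70, had a log2 fold change of 2.73, Hsph1, another exchange factor, of 1.80, and the small heat shock protein Hspb2 of 1.86. These 3 cytosolic genes, Hspa4l, Hspa1b and Hsph1, were the rises among 30 HSP70, HSP90 and co-chaperone genes, while the mitochondrial chaperonin pair Hspd1 and Hspe1 fell. The shares of rises and falls in this list were close to the 9.92% and 5.89% of all tested genes. Its median log2 fold change was 0.02, so the rises were those of single genes and not of the list. Hspe1 went from 471, 432 and 437 FPKM to 214, 189.9 and 179.8 (-1.20) and Hspd1 had a log2 fold change of -1.16, a call that was lost after rescaling. Of 26 chaperones of the endoplasmic reticulum and XBP1 targets, 1 rose, Dnajb9 (1.07), and the median was -0.28. Of 28 ATF4 targets 5 were up-regulated and 5 down-regulated, and 7 and 2 after rescaling to the same total. Chac1, which degrades glutathione, rose from 13.6, 15.3 and 13.3 FPKM to 81.9, 61.9 and 58.4 (2.24), whereas Slc7a5, the leucine transporter, fell from 48.3, 48.7 and 48.2 to 20.5, 16.1 and 20.4 (-1.35).

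Of 29 targets of p53, 8 rose and none fell, with a median of 0.36, while Trp53 itself was not called (-0.66). Bbc3, the pro-apoptotic PUMA, had 3.53, 3.86 and 3.44 FPKM in NC and 17.7, 16.2 and 10.2 in H (log2 fold change 1.96, adjusted p = 0.000198). Trp53inp1, a stress-induced autophagy protein, had a log2 fold change of 1.85, the death receptor Eda2r of 1.69 and Mdm2, the p53 ubiquitin ligase, of 1.02. In the BCL2 family of 13, 4 rose and 1 fell. Bcl2l11 (BIM), which activates BAX, rose from 7.44, 7.42 and 7.12 FPKM to 26.2, 24.9 and 22.8 (1.73), and Bok fell (-1.28). Bcl2l1, which blocks apoptosis, also rose, at 1.01.

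Of 40 lysosome and autophagy genes 8 rose and none fell, and 32 were not called. The median was 0.49, and 33 genes had H wholly above NC, against 3921 of the 13195 tested. Their summed level was 3922 to 3983 FPKM in NC and 7366, 6693 and 6537 in H. Uvrag, an autophagosome maturation factor, rose most, from 10.2, 13.1 and 10.9 FPKM to 48.3, 41.1 and 40.02 (1.91). The sialidase Neu1 had a log2 fold change of 1.87 and its protective partner Ctsa of 1.55. Sqstm1, the autophagy receptor p62, went from 342, 335 and 327 FPKM to 1091, 779.9 and 866 (1.43). Ctsd, the aspartic protease of lysosomes, rose from 297, 298 and 298 to 673, 612 and 631 (1.10), and Ctsb, at 0.998, stood just under the threshold. With rescaling to the same total, 15 of the 40 genes were called higher.

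Transcription factors of the immediate-early response were up-regulated at 48 h. Of 12 AP-1 and small MAF factors, 5 rose, and of 11 Kruppel-like factors 6 rose, with medians of 0.91 and 1.15. No member of either list fell. Fosb had 3.62, 3.26 and 3.13 FPKM in NC and 93.2, 56.0 and 71.3 in H (log2 fold change 4.39, adjusted p = 7.5e-06). Klf4, a zinc finger factor linked to growth arrest, had 7.89, 8.71 and 7.93 in NC and 61.5, 41.1 and 49.1 in H (2.60, adjusted p = 1.67e-05). Klf7 (1.38), Klf11 (1.24), Klf6 (1.17) and Klf5 (1.15) rose less. Atf3, a stress-induced repressor, had a log2 fold change of 2.35. Among 22 EGR, NR4A and serum response genes, 1 of which entered the test through H alone, 9 rose and none fell. Zfp36, which destabilises cytokine mRNAs, led this list with 8.69, 9.28 and 8.06 FPKM in NC and 51.2, 41.0 and 36.9 in H (2.29). Nr4a1 (0.35, adjusted p = 0.269) and Myc (0.05, adjusted p = 0.685) were not called. The phosphatases Dusp4 (2.29), Dusp6 (1.45) and Dusp1 (1.14), which switch off MAP kinases, rose as well.

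Inflammatory genes moved in both directions. Of 16 chemokines 7 rose and 1 fell, and 2 of these entered the test through H alone. Cxcl3, which attracts neutrophils, went from 0.445, 0.379 and 0.383 FPKM to 17.2, 8.93 and 12.1 (log2 fold change 4.63). Ccl2, the monocyte chemoattractant, had 147, 138 and 140.4 FPKM in NC and 613, 444 and 426 in H (1.78, adjusted p = 4.89e-05). Cxcl5, also a neutrophil chemokine, was the one that fell, from 851, 913 and 884 to 307, 589.6 and 229.9 (-1.35, adjusted p = 0.0105), and H replicate 2 stayed closest to NC. Il6 showed the same uneven pattern, with 114, 118 and 112 FPKM in NC and 47.7, 99.6 and 34.6 in H. Its log2 fold change of -1.06 (adjusted p = 0.0401) lost its call without any single one of 5 of the 6 libraries. Tlr2 (2.14), Traf1 (2.90) and the lipopolysaccharide coreceptor Cd14 (1.35) were among 6 rises in 30 Toll-like receptor and NF-kB genes. Pim1, a kinase induced by STAT3, rose from 13.5, 14.04 and 13.8 to 93.2, 84.0 and 66.0 FPKM (2.54).

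Genes of successive steps of prostaglandin synthesis rose. Ptgs2 (COX-2) had 79.8, 80.7 and 84.5 FPKM in NC and 438, 346 and 418 in H (log2 fold change 2.29, adjusted p = 7.5e-06). Pla2g4a, which releases arachidonic acid, had a log2 fold change of 1.23, Ptgs1 (COX-1) of 1.12 and the prostaglandin E synthase Ptges of 1.64. Hpgd, which inactivates prostaglandins, fell (-2.12), as did the leukotriene enzyme Alox5 (-1.05) and the receptor Ptgfr (-1.09). That made 4 rises and 3 falls among 16 genes, and Hpgd had entered the test through NC alone. The falls of Alox5 and Ptgfr were lost after rescaling (-0.86 and -0.90).

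More interferon-stimulated genes fell than rose. Of 28 tested with MHC class I genes, 7 fell and 1 rose, and the median was -0.40. Of the 28, 2 had entered the test through NC alone. The summed level of the list went the other way, with 1073 to 1088 FPKM in NC and 1200, 1339 and 1191 in H. Isg15, the ubiquitin-like modifier, went from 13.4, 15.96 and 15.02 FPKM to 5.52, 7.05 and 5.46 (log2 fold change -1.29), and the GTPase Gbp2 from 4.48, 4.43 and 4.66 to 1.49, 1.74 and 0.815 (-1.74). The riser was Tapbp, tapasin, which loads peptides on MHC class I (1.14). With a pseudocount of 1, 4 of the genes fell.

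Circadian clock genes rose in 57.89% of the list, against 9.92% of all tested genes. The clock is a feedback loop in which the activators Clock and Arntl (BMAL1) switch on their own repressors. Of 19 tested genes 11 rose and none fell, with a median log2 fold change of 1.16, and the summed level was 191 to 197 FPKM in NC and 385, 418 and 354 in H. Of the 11, 1 passed the filter through H alone. The rises included repressors of the loop, such as Nr1d1 and Per2, and the output factor Dbp. Nr1d1, the repressor REV-ERB alpha, went from 13.0, 12.5 and 11.7 FPKM to 66.8, 59.6 and 50.4 (2.23, standard error 0.11, adjusted p = 1.05e-05). Per2, which blocks the activators, went from 1.58, 1.72 and 1.82 to 6.41, 6.47 and 4.70 (1.71), and Ciart, another repressor, from 3.22, 2.44 and 2.74 to 18.6, 13.1 and 11.8 (2.31). In all of these genes the groups were well separated. Bhlhe40 (1.46), Rora (1.51), Cry2 (1.26), Per1 (1.25), Bhlhe41 (1.16) and Dbp (1.14) rose by less. Arntl had 13.5 ± 0.980 FPKM in NC and 14.6 ± 0.648 in H (SD, n = 3 each), with overlapping groups (0.12, adjusted p = 0.274 by limma). Clock was lower without reaching the fold threshold (-0.29, adjusted p = 0.00924). All libraries were taken at the 48 h point, so the phase of any rhythm is not known from them.

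**Figure D3:**
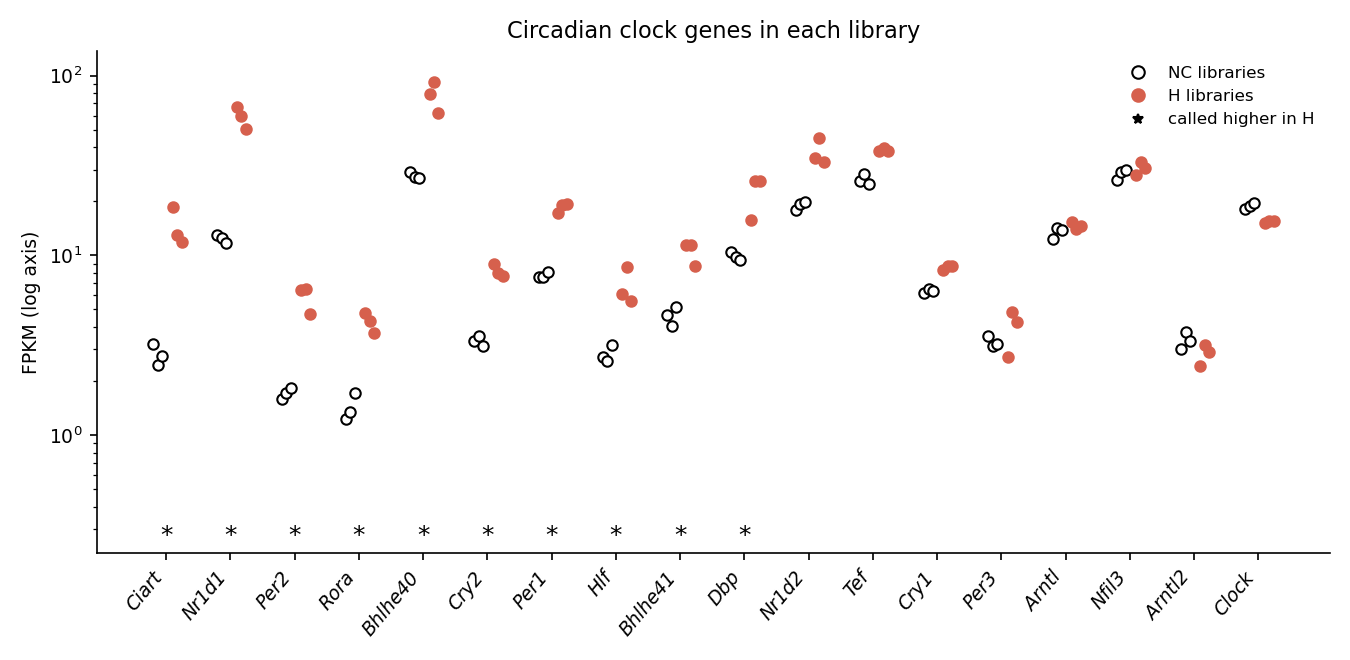
FPKM on a log axis of 18 tested clock genes in each NC library (open circles) and H library (filled circles), ordered by log2 fold change. The 10 genes with an asterisk were called higher in H, and the activators Arntl and Clock, toward the right, were not.

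Of 32 glucose uptake, glycolysis and pentose phosphate genes, 2 rose and 1 fell, with a median of -0.06. After rescaling to the same total 5 rose and none fell, and the median was 0.13. Pfkp, the platelet form of phosphofructokinase, had 46.8, 47.2 and 45.1 FPKM in NC and 129, 95.0 and 115 in H (log2 fold change 1.28). Aldoc, which entered the test through H alone, rose from a low level (2.14) and the pentose phosphate enzyme Rpia fell (-1.08). Slc2a1, the glucose transporter GLUT1, was higher in every H library (0.92, adjusted p = 0.000133) and stayed under the fold threshold, and Hk2 was not called (0.09). Pdk4, which shuts pyruvate out of mitochondria, rose from 3.66, 3.51 and 3.78 FPKM to 27.1, 21.99 and 23.9 (2.70, adjusted p = 6.76e-06). Txnip, a glucose-induced arrestin, had 45.8, 43.3 and 42.8 FPKM in NC and 49.1, 147 and 181.5 in H. H replicate 1 stood near NC, and the gene was not called (1.31, adjusted p = 0.0506). Irs2, the insulin receptor substrate, rose from 4.76, 5.04 and 4.59 to 23.7, 24.4 and 18.5 (2.18).

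None of 77 nuclear-encoded subunits of oxidative phosphorylation passed the fold threshold, but 72 had H wholly below NC, against 4855 of the 13195 tested, and their median was -0.52. The 78 cytosolic ribosomal proteins had a median of -0.64, which was -0.44 after rescaling to the same total, and 73 of them lay wholly below NC. Rpl23a, a protein of the large ribosomal subunit, had 3996, 3942 and 3874 FPKM in NC and 2528, 3031 and 3101 in H (-0.45). The 36 proteasome subunits had a median of -0.34, and the 23 cytosolic aminoacyl-tRNA synthetases, which charge tRNAs, -0.40, with Lars (-1.10) and Vars (-1.09) down-regulated. These 2 calls were lost after rescaling. The 13 mitochondrially encoded mRNAs had a median of 0.08, and in 12 of them the groups overlapped. Ppargc1a (PGC-1 alpha), a coactivator of mitochondrial genes, went from 0.176, 0.200 and 0.214 FPKM to 3.96, 2.08 and 4.04 (3.48), and had entered the test through H alone.

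Most genes of DNA replication were lower in H. Of 26 helicase and origin licensing genes 16 fell, of 37 polymerase and fork genes 25 fell and of 16 genes of deoxynucleotide supply 10 fell, with medians of -1.44, -1.40 and -1.27. None rose. Mcm5, a ring subunit of the helicase, went from 74.0, 72.0 and 71.1 FPKM to 15.3, 11.2 and 16.04 (log2 fold change -2.36, adjusted p = 1.85e-05). Clspn, the fork checkpoint mediator, had a log2 fold change of -2.37, and Tyms, which makes thymidylate, of -2.15. Pcna, the sliding clamp, had 232, 247 and 238 FPKM in NC and 276, 189.8 and 233 in H, with overlapping groups (-0.05, adjusted p = 0.734), although its binding partner Pclaf led the named falls. Orc4 (0.15) was the one licensing gene above 0.

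Mitotic genes fell with similar medians. In the list of mitotic cyclins and kinases 22 of 29 fell and 1 rose, and in the kinetochore list 35 of 44 fell. In the mitotic kinesin list, which also held genes that are not kinesins, 16 of 17 fell. The medians were -1.66, -1.65 and -1.67, in this order. Kif11, which pushes spindle poles apart, had 31.1, 32.1 and 31.8 FPKM in NC and 5.34, 7.97 and 7.54 in H (log2 fold change -2.19, standard error 0.15, adjusted p = 3.3e-05). Cdc20 went from 75.5, 73.0 and 78.0 to 23.5, 21.9 and 30.5 (-1.59), and Top2a, which untangles DNA, from 253, 245 and 239.9 to 41.5, 71.7 and 68.01 (-2.06). The NC values of these genes lay close together, and every H value was far below them. Kif24, a kinesin of the centriole, was the member not called (-0.77). Ccnf, which marks targets for degradation in G2 phase, was the riser, from 13.5, 15.3 and 14.2 to 38.6, 29.5 and 31.3 FPKM (1.20). Among 22 E2F and G1 genes 8 fell, Ccne2 most (-2.18), and Tfdp2, a partner of E2F factors, rose from 10.99, 11.1 and 12.9 to 56.6, 36.1 and 44.7 (1.95). Of 34 Fanconi anemia and homologous recombination genes 21 fell, against 5 of 32 genes of excision, mismatch and end-joining repair.

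**Figure D4:**
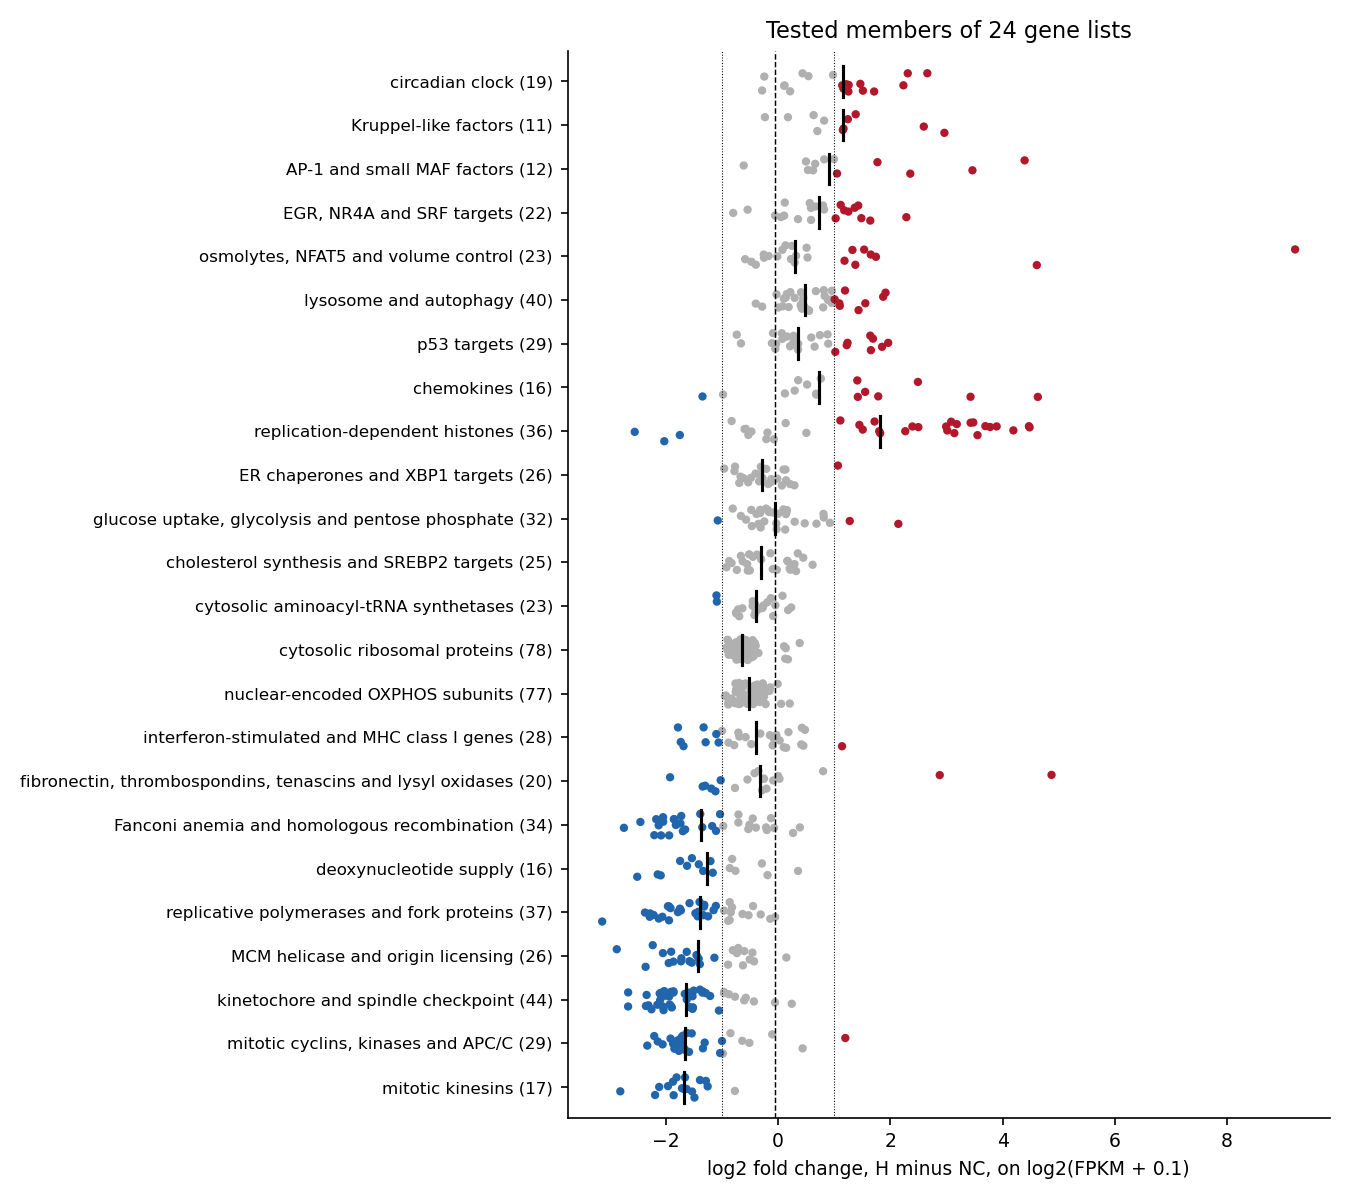
Log2 fold change, H minus NC, of each tested member of 24 gene lists, with red points called higher, blue called lower and grey not called, a black bar at the list's median and the number tested in parentheses. Clock, KLF and histone medians lie above 1, replication and mitosis medians lie below -1, and the dashed line is the median of all 13195 genes.

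Replication-dependent histones went the other way from the replication genes. Of 36 tested, 23 rose and 3 fell, but 9 entered the test through H alone and 33 more of the 69 in the table were too low to test. Their summed level was 81.6 to 87.9 FPKM in NC and 505, 630.1 and 320.3 in H. Hist1h1c, a linker histone, made up much of it, with 17.1, 18.4 and 16.8 FPKM in NC and 267, 349 and 149.6 in H (log2 fold change 3.78, adjusted p = 4.31e-05). Hist1h2bc went from 7.49, 8.10 and 7.99 to 29.3, 37.3 and 19.3 (1.80) and Hist3h2a from 1.92, 2.07 and 1.87 to 10.8, 12.1 and 7.18 (2.27). In these genes H replicate 2 was the highest and H replicate 3 the lowest. The falls were at low levels, in Hist1h2ag (-2.56), Hist1h4b (-2.03) and Hist1h3c (-1.75). Most such histone mRNAs carry no poly(A) tail, and the libraries were enriched for mRNA, so the values depend on how that step treated them, and near-identical copies share reads.

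Among 11 myogenic regulators 1 fell (9.091%) and none rose, against 5.89% and 9.92% of all tested genes. Myod1, the determination factor, had 18.1, 18.5 and 18.0 FPKM in NC and 4.09, 7.63 and 12.8 in H (log2 fold change -1.29, adjusted p = 0.017). The H libraries spread widely, and the call was lost without H replicate 1 (-0.88). Myf5 was not called (0.62). Among 23 sarcomere genes, Myom1, a protein of the M-band, rose from 0.314, 0.623 and 0.863 FPKM to 10.2, 5.75 and 10.99 (3.72), Casq2 (2.38) and Tnni1 (1.06) rose, and Myl1, a myosin light chain, fell (-1.44). Myom1 and Casq2 had entered the test through H alone. The shares of rises (13.04%) and falls (4.348%) in the sarcomere list were close to those of all tested genes. Of 23 smooth muscle type genes 4 fell and none rose, and after rescaling to the same total 2 fell and 1 rose. By adjusted p alone, 10 were lower and 2 higher. Tagln, an actin-binding protein, went from 151, 159 and 153 to 29.0, 62.1 and 47.9 (-1.80). Acta2 had a log2 fold change of -1.14, which was -0.95 after rescaling and -0.83 without H replicate 1, and so lost its call. Fst, the activin antagonist follistatin, rose (1.28), and Bmp4 (-1.78) and Id3 (-1.38), a BMP ligand and a BMP target, fell.

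Matrix genes moved in both directions. Of 21 collagen chains, 1 of which entered the test through H alone, 4 rose and 3 fell. Col4a1, a basement membrane chain, went from 51.9, 48.6 and 45.2 FPKM to 113, 117 and 90.9 (log2 fold change 1.13), and Col7a1 rose (1.23), while the fibrillar Col1a2 (-1.11) and Col5a2 (-1.13) fell along with Col1a1. The calls of Col1a2 and Col5a2 were lost after rescaling (-0.92 and -0.93) and without H replicate 1 (-0.87 and -0.92), as was that of Col7a1 without that library. Tnxb, tenascin X, rose from 0.355, 0.402 and 0.283 to 16.4, 9.995 and 13.1 (4.87), also a gene that entered through H alone, whereas tenascin C (Tnc, -1.30) and periostin (Postn, -1.93) fell. The protease inhibitors Timp3 (1.53) and Timp1 (-1.23) moved in opposite directions. Among 18 intermediate filament and tubulin genes 8 fell, all of them tubulins, and 4 genes of the list were called lower after rescaling. Tuba1b went from 1204, 1178 and 1189 FPKM to 372, 308 and 371 (-1.77, adjusted p = 8.28e-06). Krt19, a keratin, was the riser (2.23).

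**Figure D5:**
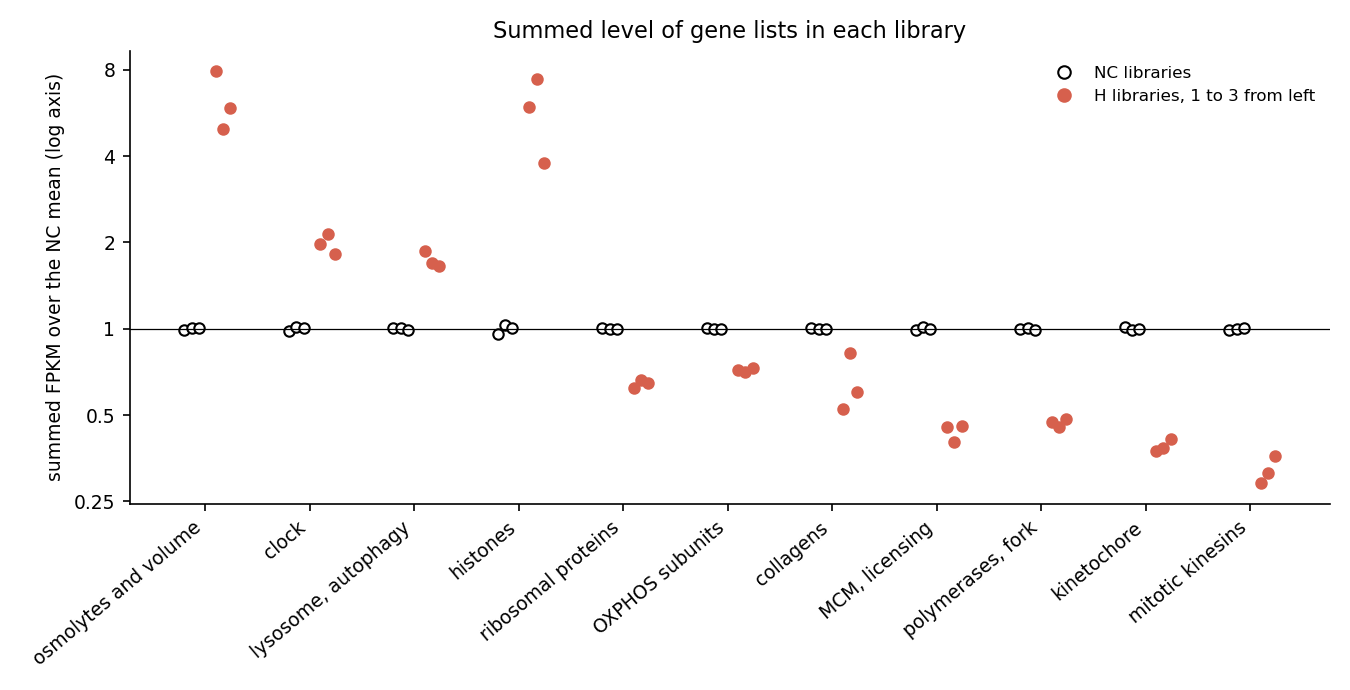
Summed FPKM of all members of 11 gene lists in each library, divided by the mean of the 3 NC libraries, on a log axis, with H libraries 1 to 3 from left to right. The NC points lie close to 1, the osmolyte sums are highest in H replicate 1, the histone sums in H replicate 2, and the collagen sums fall least in H replicate 2.

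Long non-coding RNAs were called higher more often than protein-coding genes. Of 807 tested, 299 (37.1%) rose and 37 (4.58%) fell, against 862 (7.4%) and 678 (5.82%) of 11647 protein-coding genes. The difference was also there at matched levels, as a description. Among genes at 1 FPKM or more in all 6 libraries, 79 of 381 long non-coding RNAs (20.7%) and 510 of 10884 protein-coding genes (4.69%) rose. At means over 20 FPKM the shares were 22.6% and 4.12%. Named after their values were seen, Lncpint, a target of p53, went from 0.825, 0.643 and 0.935 FPKM to 9.31, 5.72 and 8.46 (log2 fold change 3.12), having entered the test through H alone, and Snhg20 from 5.41, 4.06 and 5.58 to 38.4, 25.2 and 26.2 (2.54). Malat1, a nuclear speckle RNA, had 215, 133 and 125 in NC and 337, 521 and 498 in H (1.54, adjusted p = 0.0014). H19, the imprinted RNA of muscle precursors, fell from 418, 397 and 388 to 70.2, 177 and 219.5 (-1.52, adjusted p = 0.0171), and its call was lost without NC replicate 1. Whether the counting kept the strand was not given in the sources used here, so RNAs that overlap other genes are uncertain.

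Markers of other cell types were checked beside these results. Of 16 macrophage markers, 3 were tested and rose, Csf1r, Cd68 and Cd14, and Csf1r had entered the test through H alone. The summed level of the list was 33.3 to 34.9 FPKM in NC and 249, 171 and 223 in H. C1qa, C1qb, C1qc and Tyrobp, which mature macrophages express strongly, were at 0 in all 6 libraries. Cd163, Cx3cr1 and Itgam, too low to be tested, were higher in every H library. Cd163, the highest of them, had 0.138, 0.137 and 0.195 FPKM in NC and 0.364, 0.391 and 0.368 in H. In the remaining untested markers the groups overlapped. The one endothelial marker tested of 8, Cdh5, had 0.229, 0.280 and 0.254 FPKM in NC and 3.40, 1.13 and 2.36 in H. Cdh5 had also entered through H alone. Of the 9 myoblast markers 7 were tested, with sums of 439.8 to 454 FPKM in NC and 324, 384 and 460.4 in H. Their median log2 fold change was -0.43, and 1, Myod1, was called lower. In H, 4 of the 7 lay wholly lower and 2 wholly higher, against 4855 and 3921 of the 13195 tested genes. The part of cells of other types in the results was not tested. The placental prolactins Prl2c2, Prl2c3 and Prl2c5 and 5 of 7 tested small proline-rich genes also rose. Of these 7 small proline-rich genes, 4 had entered the test through H alone. Prl2c5 went from 2.72, 2.98 and 2.32 FPKM to 48.6, 36.6 and 42.6 (3.94), and Sprr1b, a cornified envelope protein, from 0.0845, 0 and 0 to 26.8, 10.3 and 16.2. Both families have close copies that may share reads.

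Of the genes behind the proteins blotted in the study, Prkaa1, a catalytic subunit of AMPK, had 41.1, 41.8 and 41.9 FPKM in NC and 28.3, 31.9 and 33.7 in H. It was lower in every H library, under the fold threshold (log2 fold change -0.41, adjusted p = 0.00327). Prkaa2, the other catalytic subunit, was not called (0.37, adjusted p = 0.126). Fbxo32, the muscle ubiquitin ligase MAFbx, rose from 7.20, 7.001 and 7.62 to 15.2, 21.7 and 13.6 FPKM (1.17, adjusted p = 0.000925), and the call was lost without H replicate 2 (0.97). Trim63 (MuRF1) had 0.120, 0.149 and 0.0880 FPKM in NC and 0.899, 1.26 and 0.621 in H, too low to be tested. Glp1r, the receptor of liraglutide, had 0.0685, 0.0685 and 0.120 FPKM in NC and 0.612, 0.536 and 0.518 in H and was not tested either.

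In the libraries given liraglutide with high glucose, the levels differed from gene to gene. The differences between H and HL were tested in a fit of all 9 libraries, which uses the same H libraries as the comparison above. Hist1h1c, at 236, 217 and 234 FPKM in HL, had a log2 difference, H minus HL, of 0.07 that did not pass the test (adjusted p = 0.827), as had Trp53inp1 (-0.15, adjusted p = 0.383). Nr1d1, at 36.1, 39.0 and 41.0 FPKM, was lower than in H (0.60, adjusted p = 0.00107). Rab15, at 1.496, 1.195 and 1.31 FPKM, was far lower than in H (6.20, adjusted p = 2.34e-06), as was Hspa4l (2.49, adjusted p = 3.72e-07). Kif11, at 19.8, 19.8 and 18.2 FPKM, lay between H and NC (-1.48, adjusted p = 2.67e-05).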

How the data were processed

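The authors enriched mRNA, sequenced it on an Illumina HiSeq instrument and, by the submitters' processing notes, aligned reads with HISAT2 (version 2.1.0) and quantified them with StringTie (version 1.3.3b). The deposited values are FPKM per gene and library. They hold no read counts, so no count test was run, the depth behind a value is unknown and no counting interval is given. The sources name different genomes and quantifiers, so no coordinates of the deposited genes are given; promoter coordinates are those of RefSeq on GRCm38.p6.

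Symbols were matched for 51482 of 54307 identifiers. The log2(FPKM + 0.1) values of the 6 libraries were tested with limma (version 3.58.1, statmod 1.5.0, R 4.3.3), with trend and robust options and 4 residual degrees of freedom, with Benjamini-Hochberg adjustment over the 13195 genes. Fold changes on this scale understate the change of genes near 0. Tables and plots were made with Python 3.11.15, pandas 2.3.3 and matplotlib 3.10.9. The fit was tested on simulated data.

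The 75 gene lists and the rule for named genes were chosen with earlier results of these data known. The rule takes the 12 largest rises and falls with a mean of at least 5 FPKM and no overlap, up to 3 members per list and direction, and the genes of the study's PCR and blots; the text names part of them, and list members beyond it were chosen after their values were seen. Symbols that are clone names were left out of it. Alternatives were another pseudocount, other filters, rescaling to TPM, centring, weights, limma without robust, all 9 libraries, a replicate block, and leaving out each library. A few list members are counted but not reported here by name.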

Additional observations from a re-analysis of the deposited data

How the results depend on the processing

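The count of up-regulated genes was 1309 and became 2557 without a filter on low values and 533 with a filter on a mean of 5 FPKM. Without the fold threshold, 3359 genes were higher and 4155 lower, in place of 1309 and 777. Leaving out 1 library gave 1219 to 1346 up-regulated and 708 to 866 down-regulated genes. No named gene that was called changed its direction in any of these alternatives. Changes of sign in named genes that were not called were not counted. The median over all tested genes turned from -0.06 to 0.14 after rescaling to TPM. Of the 207 named genes that were tested, called or not, 20 lost a call after rescaling to TPM, 16 without H replicate 1 and 11 with a pseudocount of 1. FPKM near 0 rest on few reads, so calls at low levels are the least certain.

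The replicate numbers of the labels were also used as a block, which gave 1308 up-regulated and 783 down-regulated genes. The same-numbered H and NC libraries deviated together with correlations of 0.09, 0.11 and 0.07 over genes, and each library correlated best with its own number. The labels do not say that a number marks a shared culture or day. Under the block the calls of 2 named genes were lost.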
